A study of Drosophila melanogaster with 2 samples.

Results

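Accessible chromatin was mapped in ML-DmD17-c3 (D17) cells, a Drosophila melanogaster line derived from larval haltere imaginal disc. The assay was ATAC-seq, where a transposase inserts adapters wherever DNA is exposed. The data hold 1 group, D17, with 2 libraries and 1 deposited list of accessible regions that names no replicate, so each value is the authors' value for the group and has no SD. No control or second condition was analysed here, and the sources used here give no karyotype. The regions described are those of the chromosome parts usually counted as heterochromatin: pericentric 2L (from 22.1 Mb), 3L (from 22.9 Mb) and X (from 22.6 Mb), the first 4.2 Mb of 3R, and the whole of chromosomes 4 and Y, in coordinates of the dm6 build. They were chosen by position alone and number 1080 of 26571 regions, with 140 on 2L, 426 on 3L, 363 on 3R, 35 on X, 98 on chromosome 4 and 18 on Y. Pericentric 2R is not part of this set.

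Pericentric heterochromatin is the compact, repeat-rich chromatin beside the centromeres. It carries methylated histones bound by HP1a and it silences many genes that are moved into it, while the genes that normally lie there depend on it for full expression. Chromosome 4 is small, carries much of the same chromatin although it has many active genes, and is bound by its own protein, Pof. The Y carries a few genes for sperm formation among long repeats. No histone mark was analysed here, so the name heterochromatin rests on position. The annotation shows the low gene content known for these parts: protein-coding genes numbered 3.10 per Mb on pericentric 3R, 8.09 on 3L, 6.54 on Y, 20.6 on 2L, 23.4 on X and 62.9 on chromosome 4, against 114 per Mb in the rest of the genome.

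Accessible regions were sparse in every block. Pericentric 2L had 99.5 regions per Mb, 3R 86.4, 3L 82.1, chromosome 4 77.1 and X 37.3, and Y had 4.91. On the rest of the same arms there were 222 per Mb on 2L, 217 on 3R, 235 on 3L and 159 on X, and 209 per Mb over these 4 arm parts together. The density was therefore 0.449 of that on the rest of the arm for pericentric 2L, 0.399 for 3R, 0.349 for 3L and 0.235 for X. Set against the 4 arm parts together it was 0.370 for chromosome 4 and 0.0235 for Y. The regions covered 4.79% of the 16.7 Mb of the blocks, against 13.6% of the remaining 121 Mb. For these lengths and the gene densities, each chromosome was taken to end at its last listed region or annotated gene. All region counts come from 1 list, so no test over samples could be run, and sequence where reads cannot be placed uniquely was not taken out of the lengths. Whether these cells carry a Y is not stated.

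**Figure D1:**
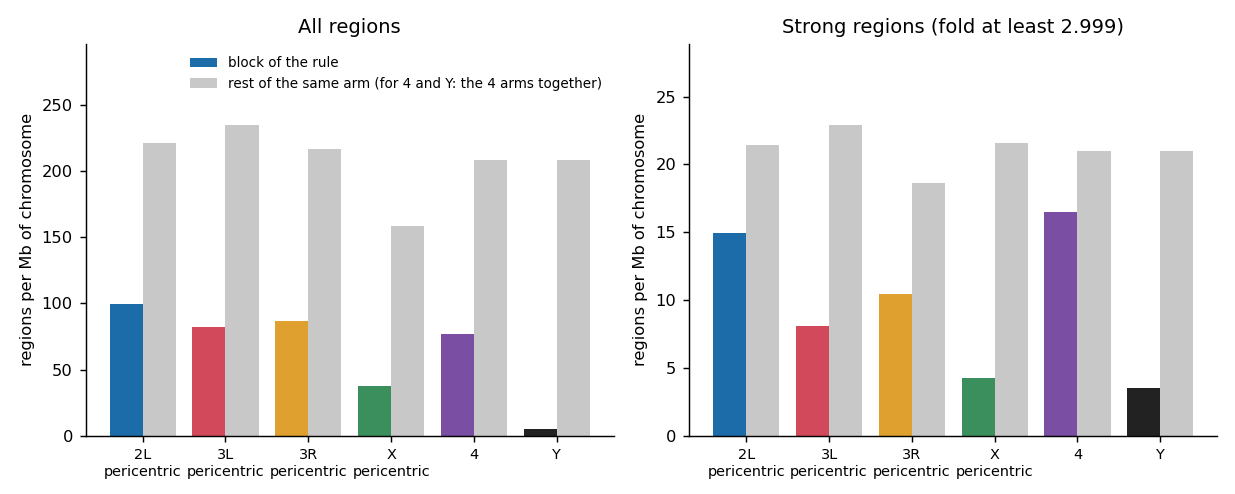
Regions per Mb of chromosome for all regions (left) and for strong regions (right). In each pair the coloured bar is the block and the grey bar the rest of the same arm, or the 4 arm parts together for chromosomes 4 and Y. Each coloured bar is below its grey partner, from 99.5 against 222 per Mb on 2L to 4.91 against 209 per Mb on Y.

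Region names carry running numbers that follow position along each chromosome, and 442 numbers up to 27013 are not in the list used here. Within pericentric X, 76 numbers are absent beside 35 that are present, or 68.5%. Absent numbers made up 18.2% on Y, 8.19% on pericentric 3L, 6.04% on 2L and 5.71% on 3R, and 0.960% outside the blocks, while chromosome 4 had none. The longest runs on X, of 44 and 23 numbers, lie between 23289767 and 23448858 and between 23198008 and 23289424. The second holds 14 of the 16 ribosomal RNA genes and ribosomal RNA pseudogenes of pericentric X, which lie from 23200802 to 23291729 and belong to the ribosomal DNA repeats. No summit in the list lay inside one of them. The sources used here do not say why numbers are absent, and their part in the low density on X was not tested.

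The change of density at the borders differed between arms. Inside the border, the first 500 kb held 96 regions per Mb on 3L, against 252 in the 500 kb outside it, and 128 against 240 on 3R. On 2L the same flanks held 134 inside and 130 outside, and on X 54 and 66, so no step was seen at those borders. Both outside flanks were themselves sparse, below the 222 and 159 per Mb of the rest of these arms. On X no summit lay from 200 to 500 kb outside the border. On 2L the first 100 kb inside the border, with the neighbouring genes CycK, CG42748, dunk and Clamp, held 28 regions. Over the whole of each block, counts per 100 kb were uneven, with a median of 7 on 2L, 8 on 3L and 3R and 3 on X. The longest stretch between summits was 191262 bp on 2L, 263363 bp on 3L, 78785 bp on 3R, 159699 bp on X, 156895 bp on chromosome 4 and 1637592 bp on Y. The one on X is the run of 44 absent numbers, and those on 2L, Y and 3L hold 2, 2 and 1 absent numbers, so these stretches are free of listed regions and not of all numbered ones. Neighbouring summits lay within 5000 bp of each other for 53.2% of pairs on pericentric 2L, 50.1% on 3L, 49.4% on 3R, 38.2% on X, 42.3% on chromosome 4 and 52.9% on Y. The same share was 74.5% over the whole list.

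Regions next to the borders are given by fold, the authors' ratio of read pileup at the summit to local background. Of the 8 nearest inside 1 was at or above the fold of 2.999 used below for strong regions, and of the 8 nearest outside 2 were. In the whole list 10.1% of regions were, and groups of 8 are too small to compare. On 3L the 2 nearest inside the border had folds of 2.49 and 1.57 in BoYb, a gene of the piRNA pathway, and the 2 nearest outside had 2.28 and 3.67. On 3R they had 2.25 and 3.81 inside, both in beta-Man, and 1.98 and 3.24 outside. On 2L they had 2.07 and 1.90 inside and 1.81 and 2.09 outside, and on X 1.87 and 1.87 inside, against 1.70 and 2.71 outside. 

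**Figure D2:**
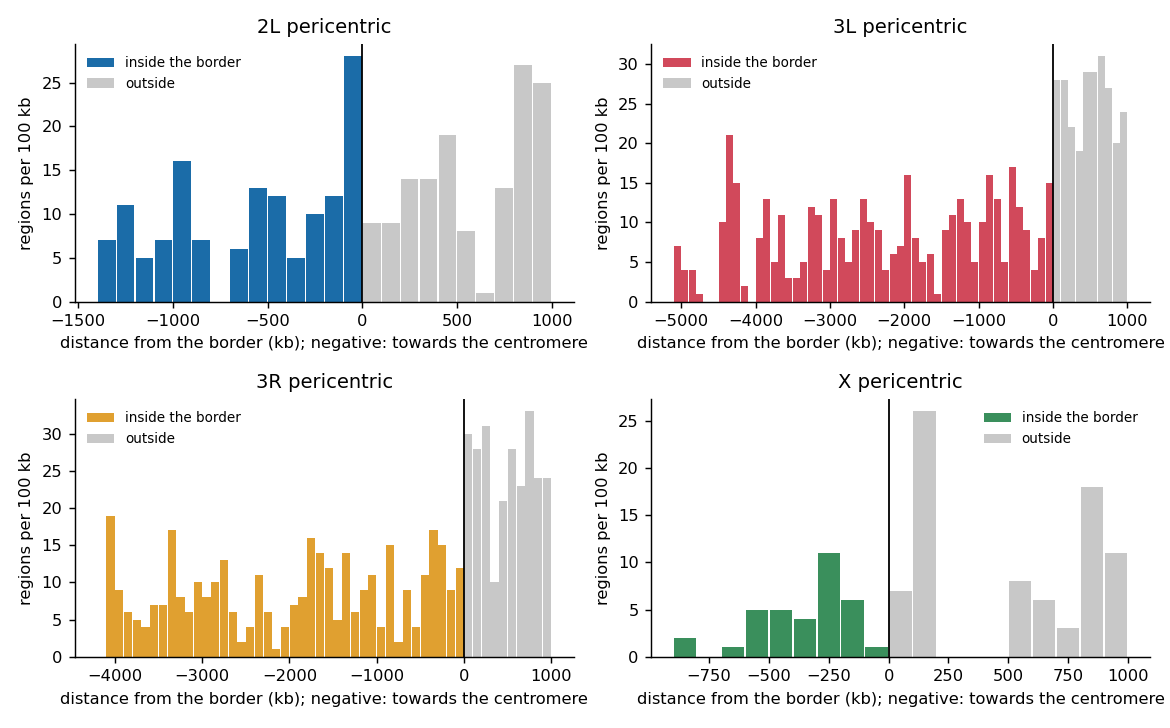
Regions per full 100 kb bin against distance from the border of the rule, in kb, with bins towards the centromere at negative distances (coloured) and bins towards the arm at positive distances (grey), for the 4 pericentric blocks. Counts step down at the borders of 3L (96 inside against 252 outside per Mb over 500 kb) and 3R (128 against 240), and not on 2L (134 against 130).

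By fold the regions of the blocks were slightly higher than the rest, and by number of reads they were not. The median fold was 2.00 in the blocks (range 1.29 to 20.5), against 1.90 in all other regions (1.29 to 40.8). The pileup at the summit, recovered from fold and p-value, had a median of 93 reads in the blocks and 101 in other regions. Local background differed as well: the lowest background of 44.4 reads applied to 81.3% of the regions in the blocks and to 38.0% of the others. Among regions at that lowest background the median pileup was 88 reads in the blocks (878 regions) and 85 elsewhere (9699 regions).

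Strong regions, the 10% of the list with the highest fold (at least 2.999, ties kept), made up 145 of the 1080 regions, or 13.4%, beside 10.1% of the whole list. The share was 72.2% on Y (13 of 18), 21.4% on chromosome 4 (21 of 98), 15% on 2L (21 of 140), 12.1% on 3R (44 of 363), 11.4% on X (4 of 35) and 9.86% on 3L (42 of 426). Without Y and a stretch of 3R described below, it was 10.9%, close to the whole list. Ranked by pileup in place of fold, the top 10% (181 reads or more) held 8.61% of the regions in the blocks, beside 10.04% of the whole list, so the direction of this difference depends on the measure. Per Mb, strong regions were fewer in each block than on the arms, at 0.786 of the density of the 4 arm parts for chromosome 4, 0.697 of the rest of the arm for 2L, 0.563 for 3R, 0.353 for 3L and 0.197 for X, and 0.169 of the 4 arm parts for Y.

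**Figure D3:**
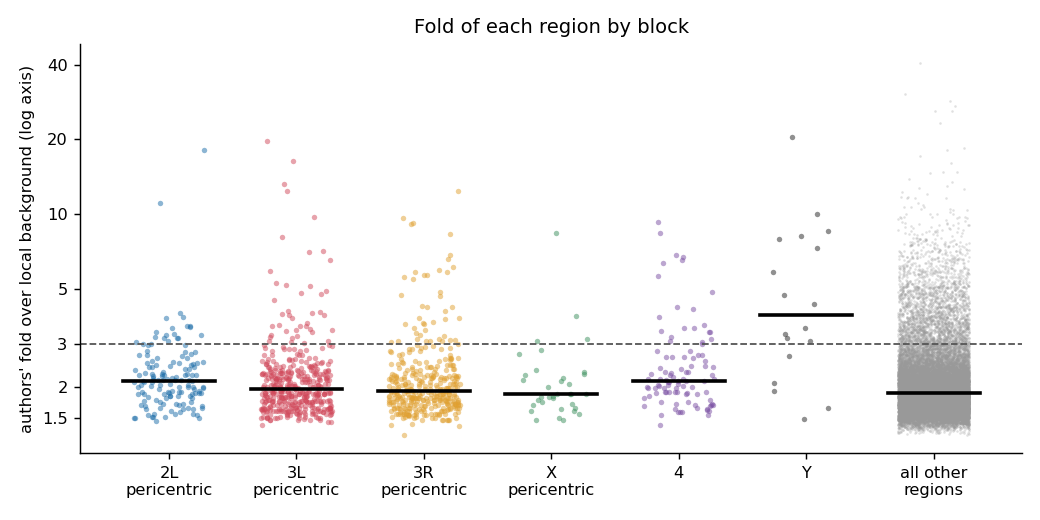
Authors' fold over local background (log axis) of each region, by block and for all other regions. Black lines are medians and the dashed line is the fold of 2.999 that defines strong regions. Y stands highest, with a median of 3.91, and the other blocks have medians of 1.87 to 2.13 against 1.90 in all other regions.

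Summits in the blocks lay at genes less often than in the list as a whole. A gene end means within 500 bp of where an annotated gene starts or stops, since the annotation used gives no strand. Summits at gene ends made up 6.76% of the regions in the blocks (73 of 1080), beside 23.6% of the whole list. Gene interiors held 49.9%, beside 63.4%, and sequence between genes 43.3%, beside 13%. Gene-end windows also cover less of the blocks, 4.18% of their length against 19.4% elsewhere. Per Mb of gene-end window there were 105 regions in the blocks and 264 elsewhere, per Mb of gene interior 73.2 and 235, and per Mb between genes 54.3 and 107. Pooled over the blocks, the shortfall was thus present in each kind of sequence. Between genes it differed by block, with 99.8 per Mb on chromosome 4, 88.1 on 3R and 77.0 on 3L. On 2L there were 73.8, on X 14.2 and on Y 6.48. By block, gene-end summits made up 27.6% on chromosome 4, 17.1% on X, 12.1% on 2L, 11.1% on Y (2 of 18), 3.05% on 3L and 2.204% on 3R.

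Of the 145 strong regions in the blocks, 77 were between genes, 47 in gene interiors and 21 at gene ends. Over all regions of the blocks these counts were 468, 539 and 73 of 1080. Over the strong regions of the whole list they were 384, 1305 and 994 of 2683. Between genes 16.5% of the regions in the blocks were strong, against 10.3% of such regions elsewhere. Y (11 of 16) and the stretch of 3R described below (20 of 30) carried this excess, and without them the share was 10.9% (46 of 422). At gene ends 28.8% were strong in the blocks, against 15.7% elsewhere. Chromosome 4 held 11 of these 21, out of 27 gene-end regions. The others were 5 of 13 on 3L, 2 of 8 on 3R, 2 of 2 on Y and 1 of 6 on X, with 0 of 17 on 2L. In gene interiors the shares were 8.72% and 7.71%.

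On pericentric 2L the highest folds lay in gene-free sequence. A region at 2L 23092971 to 23094227 had a fold of 18.1 (95% Poisson interval of the pileup 16.9 to 19.4, counting error only) from 821 reads, 22580 bp from lncRNA:CR43242. Another at 2L 23332109 to 23332788 had 11.1 (10.4 to 11.8) from 951 reads, 8215 bp from the pseudogene CR42530. The next folds were much lower: 3.99 inside the splicing factor gene Spf45, and 3.84 and 3.81 between genes, nearest to lncRNA:CR46450 and Tif-IA.

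Of the 29 protein-coding genes of pericentric 2L, 16 had a region at an end (55.2%), beside 68.6% of all protein-coding genes. They included CycK, a cyclin of transcriptional kinases (fold 3.24), and Clamp, a zinc finger protein of dosage compensation (2.96). They also included the ribosomal protein genes RpL5 (2.43) and RpL21 (1.92), and cta, a G protein alpha subunit of gastrulation (2.27, interval 1.86 to 2.75). The vesicle transport gene light (lt), a classic gene of pericentric heterochromatin at 2L 22924795 to 22943135, had no region at an end or inside, and CG40439 had none at an end. CG40006, the gene with the most regions of this block, held 19 inside but none at an end, CG42748 held 11 and Marf1 held 5.

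Pericentric 3L had 3 very strong regions within 5189 bp. They lay at 27224886 to 27225827 (fold 19.7, interval 18.7 to 20.7, 1515 reads), 27227991 to 27228620 (12.4, 1025 reads) and 27229464 to 27230074 (13.3, 1095 reads). The nearest gene, the ribosomal protein gene RpL15, was 37567 to 41972 bp away and had its own region of fold 2.85 (interval 2.47 to 3.28). A region at 3L 24683049 to 24685653, 39104 bp from the homeobox gene scro, had a fold of 16.4 (15.2 to 17.6), and one at 24929173 to 24929763, 1795 bp from CG40472, had 9.72.

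On pericentric 3L a region lay at an end of few genes, 6 of 42 protein-coding genes (14.3%), beside 68.6% of all. These were CG12768 (fold 5.89), Mes2, a mesoderm-expressed DNA-binding factor (3.92), l(3)80Fg (3.81), RpL15 (2.85), BoYb (2.49) and RpL10 (1.63, interval 1.28 to 2.05). BoYb, CG12768 and Mes2 lie close to the border of the block. Of the 14 genes listed for this block 13 had none at an end, among them nAChRalpha4, a neuronal acetylcholine receptor subunit, AGO3, an Argonaute of the piRNA pathway, Snap25, a synaptic SNARE, and nvd, which acts in ecdysone synthesis. The ends of Set1, a histone H3 methyltransferase gene, vtd, which encodes the cohesin subunit Rad21, and eIF4B, a translation factor gene, named here after their values were seen, also had none. Inside, lovit, a transporter gene known from the visual system, held 42 regions, Snap25 26, l(3)80Fg 17, Dbp80 15 and AGO3 12. Set1 and eIF4B held none inside either.

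Much of the 4200000 bp of pericentric 3R is taken up by Myo81F, a myosin gene annotated over 1965857 bp. It held 160 regions, 44.1% of the block and 14.8% of all regions described here. At 8.14 per 100 kb, beside 86.4 per Mb over the block, this was close to its share of the length. Of the 160 regions 17 were strong (10.6%, beside 10.1% of the whole list). They included 3R 2270219 to 2271158 (fold 9.24), 1684332 to 1684697 (9.13) and 2448501 to 2449675 (8.27), each 84159 bp or more from a gene end. Pzl, a Piezo-like channel gene, held 64 regions with a highest fold of 2.95. Neither gene had a region at an end, nor had spok, a cytochrome P450 gene of ecdysone synthesis, which held 3. Parp1, the poly(ADP-ribose) polymerase gene, held 10 and had one at an end (fold 2.27). Of its 13 genes 6 had a region at an end (46.2%, beside 68.6% of all protein-coding genes), with the highest fold at CG12581 (3.09).

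Long genes of the blocks were dotted with regions at a lower rate than long genes elsewhere. The 15 protein-coding genes over 50 kb outside Y held a median of 8.67 regions per 100 kb (1.92 to 14.2), against 13.7 in 292 such genes outside the blocks. Of the 15, 2 had a region at an end (13.3%), against 177 of the 292 (60.6%). Among genes up to 10 kb, 42 of 101 in the blocks (41.6%) and 8223 of 11845 elsewhere (69.4%) had a region at an end.

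The centromere side of 3R stood apart in depth and width. From 122768 to 329671, a stretch chosen after its values were seen, 30 regions covered 40.3% of 207 kb with no annotated gene, 241961 to 443844 bp from the nearest gene end, which belongs to Myo81F. Their median local background was 202 reads and their median pileup 598 reads, against 44.4 and 88 in the other 333 regions of pericentric 3R. The region at 3R 122768 to 126076 had the highest pileup of the whole list, 2908 reads, with a fold of 9.68 (9.33 to 10.03) over a background of 300 reads. The highest fold of the stretch was 12.3, at 201760 to 202809, over the lowest background. The widest region of the list, 9512 bp, lay at 295234 to 304745 with a fold of 4.70 over a background of 446 reads. Of the 10 highest backgrounds of the list all 10 were in this block, as were 5 of the 10 highest pileups and 6 of the 10 widest regions. Copy number of this sequence, and reads that fit several places, were not tested.

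Over all blocks, regions of 2000 bp or more numbered 54 (5%), beside 2.15% of the whole list. Of these 27 were on 3R, 15 on 3L, 6 on 2L, 5 on Y and 1 on chromosome 4. Without Y and the 3R stretch 3.49% were that wide. Local background of at least 66.5 reads, 1.5 times the lowest, was found at 6.57% of the regions in the blocks, beside 16.2% of the whole list, with 61.1% on Y, 9.64% on 3R and 2.86% to 4.29% in the other blocks.

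**Figure D4:**
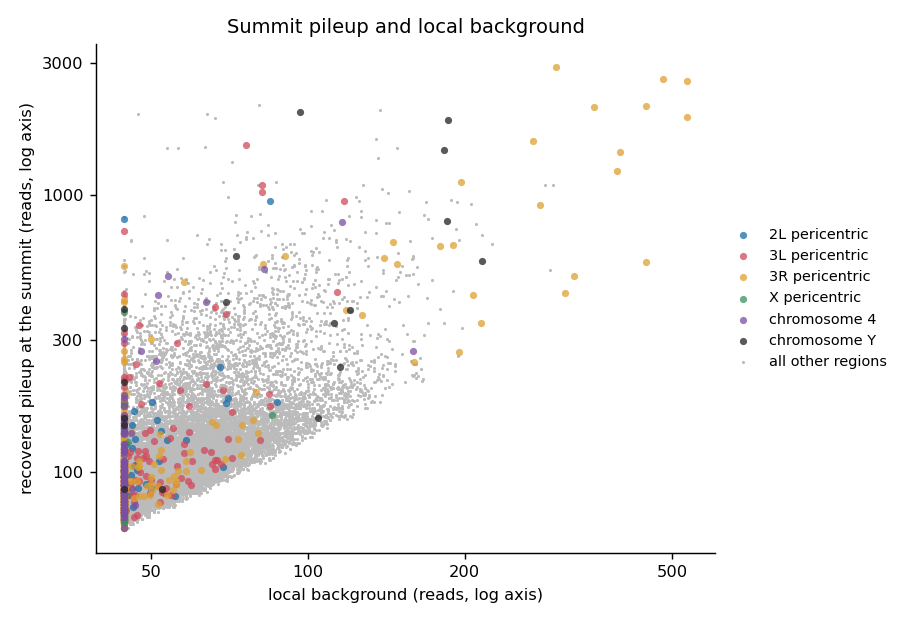
Recovered pileup at the summit against local background, both in reads on log axes, for each region of the 6 blocks (coloured) and for all other regions (grey). Most regions of the blocks sit at the lowest background of 44.4 reads, while regions of 3R reach 535 reads of background and 2908 reads of pileup.

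On pericentric X the regions were few. The median fold was 1.87 and the median pileup 84 reads, the lowest of the 6 blocks, beside 1.90 and 101 reads over the whole list. The highest fold, 8.40 (interval 7.58 to 9.29), was at X 23151705 to 23152557, between genes and 43814 bp from ATbp. The next, 3.88 at 22855140 to 22855507, was at an end of fog, which encodes the secreted ligand of the gastrulation pathway in which cta acts. lncRNA:CR44997 held folds of 3.13 and 3.06. Of 22 genes 13 had a region at an end (59.1%, beside 68.6% of all protein-coding genes), the highest share of the blocks. A strong one lay at 1 of them (fog). The RNA-processing gene su(f) had a fold of 1.70 at an end, while stnA and stnB, which overlap and act in synaptic vesicle recycling, had no region at an end or inside. CG42346 held 6 regions inside, fog 3 and CG12446 2.

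Chromosome 4 combined few accessible gene ends with a high share of strong ones, when set against genes of all lengths. Of its 80 protein-coding genes 26 had a region at an end (32.5%, beside 68.6% of all), and 14 a strong one (17.5%, beside 11.4%). Of the genes with a region at an end 53.8% had a strong one, against 16.5% outside the blocks. Genes of chromosome 4 are longer, with a median of 10090 bp against 2141 bp outside the blocks. Outside the blocks 25.5% of genes of 10 to 50 kb had a strong region at an end, and 9.10% of those up to 10 kb. In the blocks without Y these shares were 15.7% and 8.91%. Chromosome 4 alone was not compared at like gene length. The 26 ends rest on 21 regions and the 14 strong ones on 10, because neighbouring genes share regions. One such region, at 4 557051 to 558779, lay between Pur-alpha and Tdg with a fold of 8.35 (7.59 to 9.17). Another, at 1112858 to 1113182, is shared by sv and Cals (3.04).

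Among the 21 listed transcription and signalling regulators of chromosome 4, 10 had a region at an end (47.6%, beside 68.6% of all protein-coding genes). A strong one lay at 6 (28.6%, beside 11.4% of all, and 25.5% of genes of 10 to 50 kb outside the blocks). The zinc finger homeobox gene zfh2 had 6.55 at its lower end (501461 to 503087), 6.85 inside (506864 to 508778, 801 reads) and 7 regions inside in all. Sox102F, a SoxD gene, had 9.30 inside (806993 to 808628, interval 8.51 to 10.1), the highest fold of the chromosome, and 4.86 at its upper end. At ci, the transcription factor of Hedgehog signalling, the fold was 5.64 (56274 to 56614), and antisense transcript CR43957 overlaps that end. The kinase gene Asator had 4.12 and pan, the TCF factor of Wnt signalling, had 3.86, while sv, a Pax gene, had 3.04. The Pax6 gene ey had 2.16 at an end and 3.57 inside. Its paralogue toy, named here after its values were seen, had none at an end and one of 2.205 inside. PlexB, Crk and lgs had none at an end, nor had JYalpha, a listed gene that encodes an ATPase subunit and not a regulator.

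Of 12 genes of chromosome 4 listed as general cell genes, not all of them general in role, 5 had a region at an end. Folds were 3.37 at RpS3A, a ribosomal protein gene, 3.20 at gw, of the microRNA pathway, and 3.13 at ATPsynbeta, an ATP synthase subunit. The others were Cals (3.04) and Slip1 (1.63), while Arl4, CG31998, Rad23 and Zip102B had none. Of 13 genes listed under neuron and muscle, not all of them particular to those tissues, 2 had one, Pur-alpha (8.35) and Ank (1.70). The ends of dpr7, Syt7, PMCA and Ekar had none. These counts stand beside 68.6% of all protein-coding genes, and the lists were not tested. Of the 21 strong regions of the chromosome 10 had a summit away from any gene end, 9 in gene interiors and 1 between genes. Besides those in Sox102F, zfh2 and ey they included regions at 592066 to 595565, 3500 bp wide and nearest to CG1909 (fold 6.37), and at 1268523 to 1268916 inside Cadps (6.68).

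**Figure D5:**
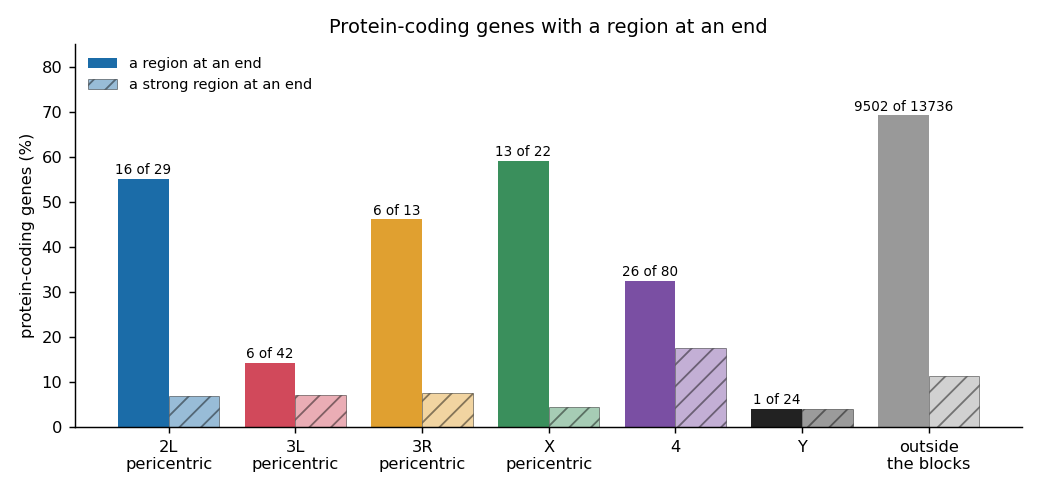
Share of protein-coding genes with a region at an end (solid) and with a strong region at an end (hatched), by block and outside the blocks, with counts above the solid bars. Chromosome 4 has 26 of 80 genes with a region and the highest strong share, 17.5%, and Y has 1 of 24.

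The Y held 18 regions, none of them inside a protein-coding gene. The sources used here do not say whether these cells carry a Y, and this was not tested. The 12 listed Y genes had no region at an end or inside, beside 78.5% of all protein-coding genes with one. These 12 are the sperm dynein genes kl-5, kl-3 and kl-2, the phosphatase genes Pp1-Y1 and Pp1-Y2, and Ppr-Y, PRY, ARY, WDY, FDY, ORY and CCY. The 1 protein-coding gene with a region at an end was CG40635, a short gene at the very start of the assembled Y, whose region (Y 65 to 560, fold 8.58) also overlaps several Su(Ste) repeats. Su(Ste) copies give rise to piRNAs that silence Stellate genes in the male germline.

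Most Y regions fell in 2 short stretches, chosen after their values were seen. From 955614 to 1029534 there were 9 regions among 7 annotated Su(Ste) copies, with folds of 2.07 to 10.004 and pileups of 240 to 1868 reads. Their median background was 120 reads. From 1417023 to 1451443 there were 6 regions, 187658 to 218791 bp from the nearest gene end, with folds of 1.49 to 20.5. The highest, at Y 1417023 to 1418148, had a fold of 20.5 (interval 19.6 to 21.4) from 1995 reads and ranked eighth in the whole list. Su(Ste) has 34 annotated copies on Y, and such near-identical copies can share reads, so the place of the regions among them is uncertain.

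The genes listed under heterochromatin proteins are not all particular to heterochromatin, and all but AGO3 lie on other chromosome parts. They had a region within 500 bp of an end more often than the genes inside the blocks. Of the 31 listed genes 4 had a strong region there (12.9%, beside 11.4% of all protein-coding genes). A region of any strength lay there in 26 (83.9%, beside 68.6%). Against all genes the direction turned with a stricter window: at 200 bp it was 10 genes (32.3%, beside 44.1% of all), and by summit 12 (38.7%, beside 44.6%). Folds were 5.22 at mod(mdg4), 3.42 at HP1b, 3.33 at JIL-1, a histone H3 kinase gene, 3.03 at Su(var)3-9, which encodes a histone methyltransferase, and 2.69 at Su(var)2-HP2. Without a region at an end were the gene of HP1a, as well as piwi, G9a, Kdm4B and AGO3. In the blocks as a whole 68 of 210 protein-coding genes (32.4%) had a region at an end, and 106 (50.5%) had one at an end or inside, beside 78.5% of all protein-coding genes.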

How the data were processed

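ATAC-seq libraries of D17 cells, 2 in number, are represented by 1 deposited list of 10 columns without a header. The submitters' processing notes name Bowtie2 2.3.5.1 and MACS2 2.2.6 among the tools and dm6 among the builds. The sources used here do not say how they were used, how repeats were handled or whether libraries were pooled. The deposited fold is a ratio over local background, the deposited −log10 p-value and q-value are those at the summit, and the deposited score follows the q-value (its −log10 times 10, without decimals, in 99.95% of regions). Whole-number pileups were recovered from fold and p-value with a relative error of at most 2.11e-05. The step was tested on simulated data, which did not reach the highest backgrounds (up to 535 reads) or the lowest folds of this list. Intervals are exact Poisson 95% intervals of the pileup and cover counting error only, since reads are not independent molecules. The total depth of the libraries is unknown.

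Genes came from a RefSeq table of Release 6, the assembly of dm6, with 17807 genes and no strand. No sequence was used here. Of 147 names in 9 gene lists 114 matched a gene in the stated place and the others were left out. The regions and lists were chosen with earlier results of these data known. Named genes are those nearest to the 5 highest folds of a block, the 3 with the most regions, and up to 5 members of a list with and 4 without a region at an end, others being named where a count is spelled out. Strong means the 10% of regions with the highest fold. Calculations ran in Python 3.11.15 with pandas 2.3.3, SciPy 1.17.1 and numpy 2.4.6. With 1 list there are no replicate values and no tests.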

Additional observations from a re-analysis of the deposited data

How the results depend on the processing

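Direction and size were kept for the density ratio (0.296 to 0.337), the median fold difference (0.0882 to 0.110) and the share of block genes with a region at an end over that of all genes (0.435 to 0.496), under every alternative run for them. The ratio of strong shares, 1.33, reversed to 0.857 when ranked by pileup. It was 1.09 without Y and the 3R stretch, chosen after seeing the data, and the strong share between genes, 16.5%, was then 10.9%. The ratio of wide regions, 2.32, was 1.67 without both and 1.52 with neighbours merged. In the 50% of regions with the higher score 573 regions remained in the blocks, 34.4 per Mb, with a median fold of 2.36 and 8.55% at gene ends. Gene-end summits made up 3.33% at 200 bp, 10.9% at 1000 bp and 3.98% with protein-coding genes. Block genes with a region at an end numbered 45 at 200 bp and by summit, and 44 in the higher-scoring 50%. Listed chromosome 4 regulators numbered 5 at 200 bp and by summit. Genes listed under heterochromatin proteins numbered 10 and 12, which turns their comparison with all genes. In the higher-scoring 50%, genes listed under neuron and muscle and listed X genes numbered 1 each. Listed 2L genes numbered 1 at 200 bp, 3L genes 2 at 1000 bp and 0 by summit, and 3R genes 2 at 1000 bp. Over all protein-coding genes the share with a region at an end was 44.1% at 200 bp, 80.6% at 1000 bp, 44.6% by summit and 48.2% in the higher-scoring 50%. Of 79 alternative values over 20 results, 54 stayed close to the value reported, 24 moved and 1 reversed. The cause was not tested, beyond fewer regions or narrower windows in the settings themselves. Leaving out a library was not possible because the list gives no values per library. No paired analysis was possible because there is 1 group.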
